A study of Mus musculus with 12 samples.

Results

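Laminins are part of the basement membrane of the heart, and integrins are among the receptors by which cells hold it. Messenger RNA of these 2 gene families was measured in mouse cardiac fibroblasts, in cardiomyocytes and in fibroblasts driven toward induced cardiomyocytes. Members were taken by symbol: the genes named Itga with a number or with 2b, d, e, l, m, v or x, Itgb with a number from 1 to 8, and Lama, Lamb or Lamc with a number from 1 to 5. This gave 37 of the 23423 genes in the table, made up of 18 integrin alpha, 8 integrin beta, 5 laminin alpha, 3 laminin beta and 3 laminin gamma genes. The rule reads names and no measured value.

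The 12 libraries fall into 6 groups of 2, all from CD1 mice of postnatal day 1.5. The first 4 groups are heart fibroblasts, sorted on magnetic beads for the surface protein Thy1, plated on gelatin in medium with 20% serum, rid of unattached cells on the next day when virus was added, and collected 3 days later. One group received a retrovirus carrying Mef2c, Gata4 and Tbx5 (MGT) with a lentiviral hairpin against the splicing regulator Ptbp1 (MGT + shPtbp1), and the group it is set against received MGT with a non-targeting hairpin (MGT + shNT). The third received MGT alone (MGT). The fourth (control) received a retrovirus that the titles call lacZ and other labels an empty vector. The last 2 groups are fresh cardiomyocytes, prepared with a commercial isolation kit, and Thy1-sorted fibroblasts. Their labels name no virus and no day in culture, and they are called fresh here. Replicate 2 of MGT + shPtbp1 has a source label that names Ptbp2, while its title and its transduction label name Ptbp1. The labels do not say whether the 2 libraries of a group came from separate animals or cultures, so the p-values measure only the spread between libraries, which may be technical.

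An integrin is a pair of an alpha and a beta subunit that spans the cell membrane, binds matrix or another cell outside and connects to actin through talin and kindlin inside. A laminin is a cross-shaped trimer of an alpha, a beta and a gamma chain that polymerises into the sheet of the basement membrane, where nidogen, perlecan and type IV collagen join it. In heart muscle the laminin alpha 2 chain, encoded by Lama2, surrounds the myofibres and is held by dystroglycan and by the integrin of Itga7 and Itgb1, while the alpha 4 and alpha 5 chains are typical of vessels. Leukocytes carry their own integrins, in which Itgb2 pairs with Itgal, Itgam, Itgax or Itgad.

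The RefSeq promoter table (GRCm38.p6) held 23 of the 37 genes. Promoters of 4 members whose levels separated the cultured groups are shown as the 250 bases before the transcription start, 5′ to 3′ on the strand of the gene: Itgam and Itgax, which lie side by side on chromosome 7 and were both lower in the groups with a hairpin lentivirus, and Lama2 and Lama5, which moved in opposite directions with MGT. Capitals mark matches on either strand to CTA and TAG with any 4 bases between them for MEF2 factors, AGATAA for GATA factors, AGGTGT for T-box factors and GAGGAA for the myeloid factor PU.1. No overlap between these motifs occurs in the 4 windows. The windows are chr7:128062390-128062639 (+) for Itgam, chr7:128129300-128129549 (+) for Itgax, chr10:27616943-27617192 (-) for Lama2 and chr2:180225860-180226109 (-) for Lama5. The Itgam and Lama5 windows lie outside the GENCODE spans of their genes, the last 3 bases of the Itgax window lie in a GENCODE exon, and the Lama2 window lies inside the longer GENCODE gene but in none of its exons.
Itgam: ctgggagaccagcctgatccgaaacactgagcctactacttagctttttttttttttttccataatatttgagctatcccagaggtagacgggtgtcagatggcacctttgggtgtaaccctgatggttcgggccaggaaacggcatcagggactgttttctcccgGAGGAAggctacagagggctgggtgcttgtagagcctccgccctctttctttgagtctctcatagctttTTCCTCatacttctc
Itgax: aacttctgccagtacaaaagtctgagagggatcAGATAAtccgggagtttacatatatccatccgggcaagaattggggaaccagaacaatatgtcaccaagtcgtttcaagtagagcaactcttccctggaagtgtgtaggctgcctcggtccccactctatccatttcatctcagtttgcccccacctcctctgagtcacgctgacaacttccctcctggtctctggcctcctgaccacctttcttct
Lama2: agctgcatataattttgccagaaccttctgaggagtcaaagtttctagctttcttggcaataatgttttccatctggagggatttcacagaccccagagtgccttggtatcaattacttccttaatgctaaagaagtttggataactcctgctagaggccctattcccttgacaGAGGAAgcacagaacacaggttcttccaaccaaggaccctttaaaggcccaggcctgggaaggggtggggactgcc
Lama5: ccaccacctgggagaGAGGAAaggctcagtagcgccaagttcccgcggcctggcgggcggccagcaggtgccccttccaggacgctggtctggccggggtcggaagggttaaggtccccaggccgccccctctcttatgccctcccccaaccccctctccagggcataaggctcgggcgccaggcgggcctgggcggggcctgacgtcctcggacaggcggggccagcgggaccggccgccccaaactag
The Itgam window held 2 GAGGAA matches, at 84 and 15 bases before the start, Lama2 held 1 at 76 bases and Lama5 held 1 at 235 bases. The Itgax window held 1 AGATAA match, at 217 bases. None of the 4 windows held the MEF2 or T-box letters, which says only that these letters are not in these 250 bases. Over the 250 bases of all 32851 promoters in the table, 3.2% held the MEF2 letters, 9.99% the GATA letters, 11.8% the T-box letters and 23.3% the PU.1 letters, so a single match is a description and not a site.

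Depth was 49320858 to 94005212 assigned reads per library, at which 1 read was worth 0.0106 to 0.0203 CPM, the count scaled to the library total. Values are given as scaled CPM, that is CPM divided by a scaling factor of each library. Fold changes are differences of log2(scaled CPM + 0.5), a scale on which changes of low genes look smaller than they are. The tests were limma's, fitted over all 13977 genes that passed the filter, with p-values adjusted over all of them. Ptbp1 was at 81.1 and 78.5 scaled CPM in MGT + shPtbp1 cells, against 359.8 and 365 scaled CPM in MGT + shNT cells. Ptbp2, which the source label of MGT + shPtbp1 replicate 2 names, was at 133 and 136 scaled CPM, against 30.4 and 29.4. Replicate 2 was thus low in Ptbp1 and high in Ptbp2, as replicate 1 was. No library of one group reached the range of the other. Tbx5 was at 1770 and 1847 scaled CPM in MGT cells, 645 and 678 in control cells and 6.94 and 7.52 in fresh fibroblasts. Mef2c was at 720 and 761, 313 and 331, and 139 and 138 scaled CPM in the same groups. Gata4 was at 683 and 701, 341 and 375, and 219 and 218 scaled CPM. Control cells thus held more RNA of these factors than fresh fibroblasts, and its source was not tested. Cardiomyocyte markers such as Myh6 and Tnnt2 summed over 10 genes to between 16526 and 17316 scaled CPM in fresh cardiomyocytes, against 1730.5 to 1777 in fresh fibroblasts. Fibroblast markers summed to between 22216 and 22338 scaled CPM in fresh cardiomyocytes, against 40931 to 41850.2 in fresh fibroblasts, so the cardiomyocyte preparation also carried RNA of fibroblast genes. In all such bulk samples, fewer cells of a type and less RNA per cell cannot be told apart.

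Of the 37 genes, 35 reached 1 CPM in at least 2 libraries and were tested. The other 2, Itgae of intraepithelial lymphocytes and Itgb6 of epithelia, stayed at or below 0.316 and 0.519 scaled CPM in every library. At least 1 CPM was found in all 12 libraries for 29 genes, and 6 tested genes fell below it in some libraries, so these 6 passed through the libraries in which they were higher. They were Itga11, Itga2b, Itgad, Itgb4, Itgb7 and Lama1. Among the 37 genes, 30 reached 10 scaled CPM in at least 1 group and 18 reached 100.

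Levels were compared between genes as scaled CPM per kilobase of exon, and each subunit is given as a share of its class. Itgb1, the beta subunit shared by most matrix receptors, made up 75.9% ± 0.2 of the integrin beta RNA in MGT + shPtbp1 cells, 76.2% ± 0.24 in MGT + shNT cells, 76.7% ± 0.0034 in MGT cells, 73.2% ± 0.69 in control cells, 83.0% ± 0.38 in fresh cardiomyocytes and 78.4% ± 0.4 in fresh fibroblasts (SD, n = 2 each). Itgb5, a partner of Itgav, came next in every group, with a share that lay between 18.9% and 22.5% in the 4 cultured groups, was 8.88% ± 0.29 in fresh cardiomyocytes and 14.2% ± 0.45 in fresh fibroblasts. The beta class was thus led by the same pair of genes everywhere.

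Per kilobase, the alpha class was more mixed. Itga5, the fibronectin receptor subunit, led it in fresh cardiomyocytes with 47.1% ± 0.42 and in fresh fibroblasts with 30.4% ± 0.17 of the integrin alpha RNA per kilobase. It also led in MGT + shNT cells with 24.9% ± 0.052, in MGT cells with 23.7% ± 0.61 and in control cells with 25.1% ± 0.88. In MGT + shPtbp1 cells Itga8, which pairs with Itgb1 to bind nephronectin and fibronectin, stood first with 26.6% ± 0.54, ahead of Itga5 with 19.4% ± 0.36. Itga8 shares in the other groups were 22.7% ± 0.064 in MGT + shNT cells, 19.6% ± 0.73 in MGT cells, 18.6% ± 0.33 in control cells, 6.39% ± 0.28 in fresh cardiomyocytes and 12.9% ± 0.19 in fresh fibroblasts. The 3 laminin receptor subunits Itga3, Itga6 and Itga7 differed in order between fresh and cultured cells: Itga6 was the largest of them in both fresh groups, at 11.2% ± 0.052 in cardiomyocytes and 10.5% ± 0.14 in fibroblasts, and the smallest in all 4 cultured groups, where it ranged from 3.83% to 4.86%. With the longest transcript as the length, 2 of these orders changed: Itga8 came before Itga5 in MGT + shNT cells (21.6% and 20.9%), and Itga6 came just before Itga3 in MGT cells (7.61% and 7.33%).

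The collagen receptor subunits Itga1, Itga2 and Itga10 were highest in fresh fibroblasts, while Itga11, another collagen receptor subunit, was higher in all cultured libraries than in the fresh ones. Itga1 was at 114 and 109 scaled CPM in MGT + shPtbp1 cells, 130.5 and 125 in MGT + shNT cells, 121 and 126 in MGT cells, 102 and 109.8 in control cells, 116 and 118 in fresh cardiomyocytes and 202 and 209.8 in fresh fibroblasts. Itga10 was at 7.27 and 6.70 scaled CPM in MGT + shPtbp1 cells, 6.94 and 6.92 in MGT + shNT cells, 10.3 and 8.69 in MGT cells, 8.49 and 8.74 in control cells, 5.17 and 4.09 in fresh cardiomyocytes and 14.5 in both libraries of fresh fibroblasts. Itga2 was at 3.70 and 3.85 scaled CPM in MGT + shPtbp1 cells, 4.50 and 5.01 in MGT + shNT cells, 4.04 and 4.29 in MGT cells, 3.31 and 3.33 in control cells, 13.1 and 12.9 in fresh cardiomyocytes and 18.5 and 17.7 in fresh fibroblasts. Of these 3 genes, cultured cells were the lowest for Itga2, and cardiomyocytes the lowest for Itga10.

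Itga6 was at 98.8 and 95.4 scaled CPM in MGT + shPtbp1 cells, 112 and 106 in MGT + shNT cells, 126 and 135 in MGT cells, 95.5 and 107 in control cells, 193 and 192 in fresh cardiomyocytes and 177 and 173 in fresh fibroblasts. Itga9 was at 97.0 and 94.2 scaled CPM in MGT + shPtbp1 cells, 98.7 and 93.7 in MGT + shNT cells, 83.9 and 84.2 in MGT cells, 72.7 and 76.2 in control cells, 121 and 124 in fresh cardiomyocytes and 124 and 129 in fresh fibroblasts. Both subunits, a laminin receptor subunit and a receptor subunit for tenascin and Vcam1, were highest in the 4 fresh libraries, with smaller steps between the cultured groups. Itga5 was at 274 and 264 scaled CPM in MGT + shPtbp1 cells, 383 and 373 in MGT + shNT cells, 349.8 and 347 in MGT cells, 342 and 383 in control cells, 448 and 436 in fresh cardiomyocytes and 278 and 276 in fresh fibroblasts. Itga8 was at 577 and 526 scaled CPM in MGT + shPtbp1 cells, 519 and 510.3 in MGT + shNT cells, 412 and 446 in MGT cells, 393 and 408 in control cells, 87.3 and 91.5 in fresh cardiomyocytes and 173 and 177 in fresh fibroblasts. Itgav was at 324 and 296 scaled CPM in MGT + shPtbp1 cells, 355 and 349 in MGT + shNT cells, 286 and 291 in MGT cells, 288 and 321 in control cells, 90.5 and 92.9 in fresh cardiomyocytes and 150.3 and 151 in fresh fibroblasts. The cultured libraries lay above all fresh ones for Itga8 and Itgav, and for Itga5 fresh cardiomyocytes were the highest group.

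Itgb4 was at 0.877 and 1.23 scaled CPM in MGT + shPtbp1 cells, 1.11 and 1.25 in MGT + shNT cells, 1.11 and 0.958 in MGT cells, 0.958 and 1.15 in control cells, 21.9 and 22.6 in fresh cardiomyocytes and 17.9 and 19.8 in fresh fibroblasts. Itgb8 was at 5.08 and 5.09 scaled CPM in MGT + shPtbp1 cells, 8.86 and 8.29 in MGT + shNT cells, 4.34 and 4.68 in MGT cells, 5.09 and 5.26 in control cells, 15.2 and 15.0 in fresh cardiomyocytes and 13.9 and 14.9 in fresh fibroblasts. These 2 beta subunits were highest in the fresh libraries. Among the minor laminin chains the groups stood in a different order for each. Lama3 was at 3.81 and 4.53 scaled CPM in MGT + shPtbp1 cells, 4.05 and 3.63 in MGT + shNT cells, 7.83 and 7.07 in MGT cells, 6.38 and 5.39 in control cells, 13.4 and 12.4 in fresh cardiomyocytes and 18.6 in both libraries of fresh fibroblasts. Lamc3 was at 11.7 and 10.4 scaled CPM in MGT + shPtbp1 cells, 8.44 and 8.66 in MGT + shNT cells, 3.11 and 2.70 in MGT cells, 5.20 and 6.57 in control cells, 3.57 and 3.28 in fresh cardiomyocytes and 2.56 and 1.89 in fresh fibroblasts. Fresh fibroblasts were highest for Lama3, the chain of epithelial basement membranes, and MGT + shPtbp1 cells for Lamc3. Below 10 scaled CPM in every library were Itga2b of platelets, Itgad, Itgb7 of lymphocytes, Lama1 and Lamb3, besides the 2 genes that were not tested.

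**Figure D1:**
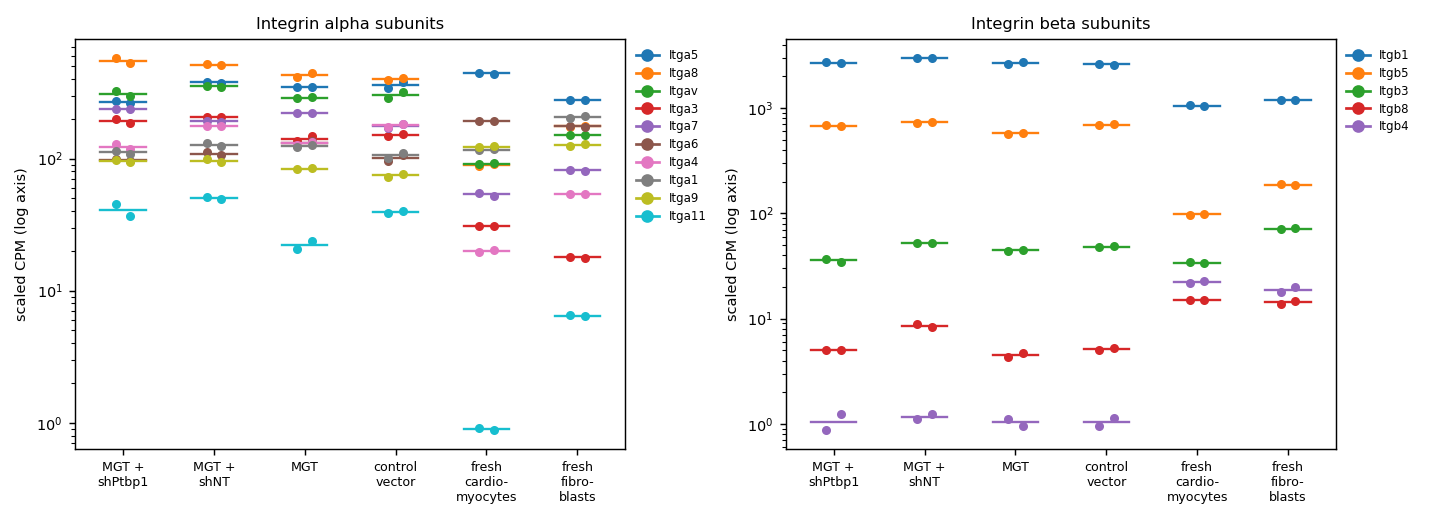
Scaled CPM of integrin alpha genes (left) and beta genes (right) on log axes, in the 4 cultured groups and the 2 fresh groups; each point is a library and each bar the mean of 2. Itga3 and Itga11 lie higher in all cultured libraries than in all fresh ones, Itgb4 lies lower, and Itgb1 lies higher in all cultured libraries than in all fresh ones.

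Among the laminin chains, Lamc1 gave between 98.5% and 99.6% of the gamma RNA per kilobase in all 6 groups. Lamb1 gave most of the beta RNA, from 59.5% ± 0.37 in MGT cells to 72.4% ± 0.0029 in fresh fibroblasts, and Lamb2, the chain of neuromuscular junctions, most of the rest. The alpha chains changed places. Lama4, the chain of vessels and of many mesenchymal cells, made up 59.3% ± 0.25 of the alpha RNA in fresh cardiomyocytes and 56.3% ± 0.23 in fresh fibroblasts. Lama2 led in all cultured groups, with 55.9% ± 0.37 in MGT + shPtbp1 cells, 51.2% ± 0.4 in MGT + shNT cells, 59.1% ± 0.13 in MGT cells and 43.5% ± 0.29 in control cells (SD, n = 2 each). The order of Lama2 and Lama4 within each group was the same when the longest transcript replaced the union of exons as the length, although the share of Lama5 in control cells was then 13.1% in place of 21.5%.

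**Figure D2:**
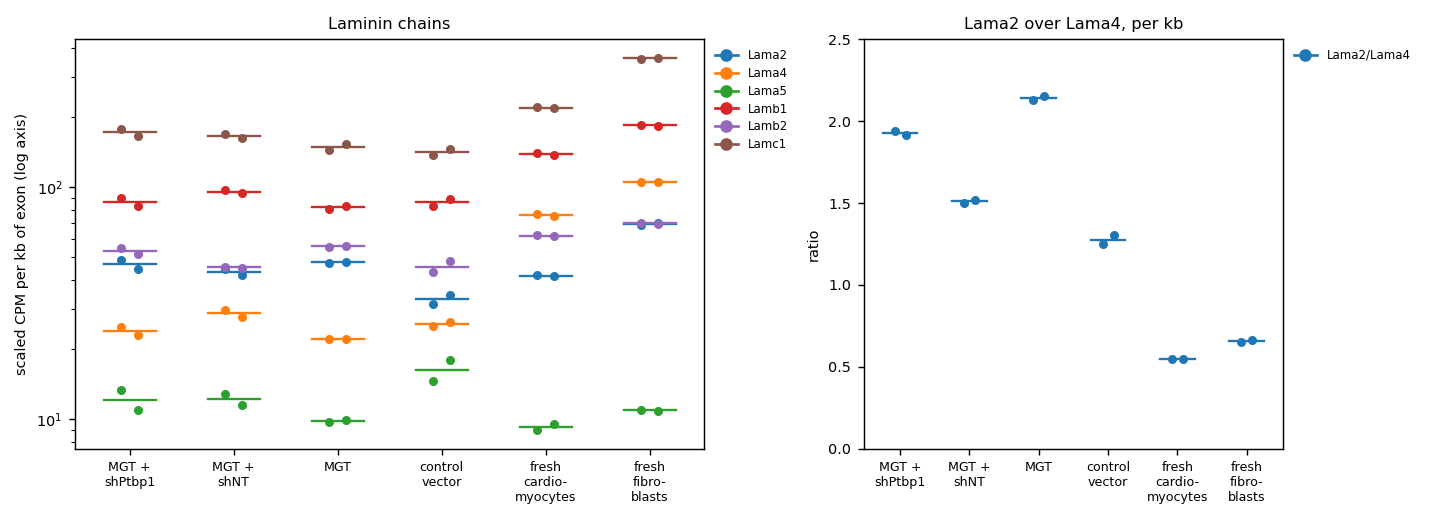
Left, scaled CPM per kilobase of exon (log axis) of the 6 more abundant laminin chains in each library of the 6 groups, with bars at the mean of 2. Right, the ratio of Lama2 to Lama4 per kilobase (linear axis from 0), which lies below 1 in the 4 fresh libraries and above 1 in the 8 cultured ones.

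The comparison of fresh cardiomyocytes with fresh fibroblasts asked how the families differ between the 2 cell preparations. Most genes that differed were lower in cardiomyocytes: 7 of the 35 genes were higher and 18 lower by limma at an adjusted p below 0.05. Of all 13977 genes tested 76.9% were called, 35.2% higher and 41.7% lower, so the share of members called was near that of all genes and says nothing particular about them. The median log2 fold change was -0.17 over the 35 genes and -0.05 over all genes. Called differences of at least 2-fold were found in 4 members, all lower, and in 12.3% of all genes.

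The 4 were collagen, fibronectin and vitronectin receptors. Itga11, the fibrillar collagen receptor of fibroblasts, was at 0.913 and 0.882 scaled CPM in cardiomyocytes, against 6.53 and 6.41 in fibroblasts, a log2 fold change of -2.32 ± 0.084 (SE) with an adjusted p of 9.29e-15 by limma. Itga10, another collagen receptor, was at 5.17 and 4.09 scaled CPM, against 14.5 in both fibroblast libraries (log2 fold change -1.55). Itga4, which binds fibronectin and Vcam1, was at 19.8 and 20.3 scaled CPM, against 53.9 and 54.1 (log2 fold change -1.41), and Itgb3, the platelet and vitronectin receptor subunit, at 34.4 and 33.8, against 70.7 and 72.3 (log2 fold change -1.06). Both cardiomyocyte libraries lay below both fibroblast libraries for all 4 genes. Itga8, Itgb5, Itga1 and Itgav were lower by log2 fold changes of -0.97, -0.94, -0.81 and -0.71.

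The laminin chains of the muscle basement membrane were also lower in the cardiomyocyte libraries. Lama2 was at 683 and 677 scaled CPM in cardiomyocytes, against 1123 and 1144 in fibroblasts (log2 fold change -0.74 ± 0.048, adjusted p = 5.7e-11 by limma), and Lamc1 at 1828 and 1823, against 2962 and 2985 (log2 fold change -0.70). Itga7, the laminin receptor subunit of muscle, was at 55.0 and 52.5 scaled CPM in cardiomyocytes, against 82.0 and 80.5 in fibroblasts (log2 fold change -0.59 ± 0.038, adjusted p = 5.86e-11 by limma). The groups did not overlap for these genes. Lama4 and Lamb1 were lower by -0.48 and -0.41.

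Higher in cardiomyocytes were the laminin receptor subunit Itga3 at 31.1 and 30.7 scaled CPM, against 17.9 and 17.8 in fibroblasts (log2 fold change 0.77 ± 0.044), and Itga5 at 448 and 436, against 278 and 276 (log2 fold change 0.67 ± 0.043). Lamc3 and Lamb3, minor chains at under 8 scaled CPM, were higher by log2 fold changes of 0.54 and 0.49, and Itgb2 by 0.34. Most myeloid markers went the other way from Itgb2. They summed to 696 to 699 scaled CPM over 9 genes in cardiomyocytes, against 1036 to 1041 in fibroblasts, with 1 higher and 6 lower. All of these integrins and laminins passed the limma test with both libraries of each group. The call for Itga6 (log2 fold change 0.14) was lost without cardiomyocyte replicate 1 (adjusted p = 0.0678) or fibroblast replicate 2 (adjusted p = 0.0835), and that for Lama5 (-0.24) without cardiomyocyte replicate 1 (adjusted p = 0.104) or fibroblast replicate 1 (adjusted p = 0.0677). Beside these values, 10 of 10 cardiomyocyte markers were higher and 10 of 10 fibroblast markers lower in cardiomyocytes, and endothelial markers summed to 4336 to 4349 scaled CPM, against 3377 to 3429 in fibroblasts. Of 8 smooth muscle and pericyte markers 7 were lower and 1 higher, with sums of 852 to 856 scaled CPM in cardiomyocytes, against 1844 to 1864 in fibroblasts. The part of these cell types in the integrin and laminin values was not tested.

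The comparison of control cells with fresh fibroblasts asked what went with plating, a control virus and 3 further days in culture. This was the largest difference in the families, and it ran in both directions. Of the 35 genes, 16 were higher and 18 lower by limma, where 86.9% of all genes were called, 43.5% higher and 43.4% lower. Called differences of at least 2-fold were found in 25 of the 35 genes, 13 higher and 12 lower, and in 29.8% of all genes. Integrins went both ways, with 13 of 24 higher and 11 lower, while of the 11 laminins 3 were higher and 7 lower. The fresh fibroblast libraries are shared with the comparison above.

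The higher integrins included Itga3, Itga11, Itgb5 and Itgb1, all subunits of matrix receptors, but other matrix receptor subunits were lower. Itga3 was at 147 and 153 scaled CPM in control cells, against 17.9 and 17.8 in fresh fibroblasts, a log2 fold change of 3.04 ± 0.044 with an adjusted p of 2.16e-21 by limma. Itga11 was at 38.5 and 39.9 scaled CPM, against 6.53 and 6.41 (log2 fold change 2.51 ± 0.084). Itgb5 was at 684 and 710.3 scaled CPM, against 191 and 184 (log2 fold change 1.89 ± 0.035). All control libraries lay above all fresh fibroblast libraries for these genes. Itgb1 was at 2630.2 and 2577 scaled CPM in control cells, against 1185 and 1203 in fresh fibroblasts (log2 fold change 1.12), and its partners Itga4, Itga8, Itga7 and Itgav were higher by 1.72, 1.19, 1.11 and 1.01. Itga5 was higher by 0.38. Itga1, Itga6, Itga9, Itga10 and Itgb3 were lower, by log2 fold changes of -0.96, -0.79, -0.76, -0.72 and -0.56.

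Most laminin chains were lower in culture, 7 of 11. Lama4 was at 305 and 316 scaled CPM in control cells, against 1276 in both fresh fibroblast libraries (log2 fold change -2.04 ± 0.042, adjusted p = 3.91e-19 by limma). Lamc1, which gives nearly all gamma chain RNA here, was at 1136 and 1207 scaled CPM, against 2962 and 2985 (log2 fold change -1.34). Lamb1 and Lama2 were lower by -1.10 and -1.08 and Lamb2 by -0.62. Lama5 went the other way, at 166 and 205 scaled CPM in control cells, against 125 and 123 in fresh fibroblasts (log2 fold change 0.57), as did Lamc3 (1.23). Lama3 and Lamb3, chains of epithelial laminin, were lower by -1.59 and -1.44. Over the 11 chains the laminin sum was 3232 and 3480.4 scaled CPM in control cells, against 7787 and 7813 in fresh fibroblasts, and the sum of the 26 integrins was 5492 and 5600.2 scaled CPM, against 2928 and 2951. The 2 sums thus moved in opposite directions. Per kilobase of exon the laminin sum was 338 and 364, against 803 and 805, and the integrin sum 1158 and 1170, against 557 and 560. Itgb1 was the largest part of the integrin sum in both groups, and 11 of the 24 integrins tested were lower, so the sum does not describe every member.

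Several integrins with larger falls are typical of epithelium, endothelium, platelets or lymphocytes. Itgb4, the hemidesmosome subunit, was at 0.958 and 1.15 scaled CPM in control cells, against 17.9 and 19.8 in fresh fibroblasts (log2 fold change -3.64 ± 0.12), and Itga2, a collagen receptor, at 3.31 and 3.33, against 18.5 and 17.7 (-2.28). Itgal, the lymphocyte partner of Itgb2, was at 6.63 and 7.05 scaled CPM, against 51.4 and 50.4 (log2 fold change -2.81 ± 0.077). Itgb7, Itgb8 and Itga2b were lower by -1.71, -1.39 and -1.41, and with a pseudocount of 2 the values of Itgb7 and Itga2b were -0.95 and -0.87. By contrast the myeloid subunits were higher: Itgam was at 164 and 159 scaled CPM in control cells, against 53.4 and 52.6 (log2 fold change 1.60), Itgb2 at 87.7 and 85.8, against 32.9 and 32.7 (1.39), and Itgax at 26.1 in both libraries, against 7.06 and 6.34 (1.89). Itgad and Lama1, both near 1 scaled CPM, were higher by 1.13 and 0.81, or by 0.58 and 0.39 with a pseudocount of 2. Per kilobase, Itgal stood at 0.0367 ± 0.0021 of Itgb2 in control cells and at 0.721 ± 0.008 in fresh fibroblasts (SD, n = 2 each).

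Markers of other cells also differed between these groups. All 10 endothelial markers were lower in control cells, with sums of 129 to 133 scaled CPM, against 3377 to 3429 in fresh fibroblasts. Cdh5, the cadherin of endothelium, was at 29.3 and 30.7 scaled CPM, against 1021 and 1041. Of 9 myeloid markers 8 were higher and 1 lower, with sums of 3632 to 3867 scaled CPM, against 1036 to 1041. Of 8 smooth muscle and pericyte markers 5 were lower and 2 higher, with sums of 780.4 to 839 scaled CPM, against 1844 to 1864. Of 10 cardiomyocyte markers 7 were lower and 3 higher, with sums of 2734 to 2909 scaled CPM, against 1730.5 to 1777. The sum was thus higher although most of the markers were lower. Tnnt2 alone was at 2423 and 2187 scaled CPM in control cells, against 182 and 190 in fresh fibroblasts. It gave most of the cardiomyocyte sum in every cultured group. Myl7 was at 230 and 245 scaled CPM, against 17.1 and 16.9. Of 10 fibroblast markers 5 were lower and 3 higher, with sums of 20748 to 22909.9 scaled CPM, against 40931 to 41850.2. No marker of these 5 lists was at 0 in either group. Of the 4 lymphocyte markers tested 3 were lower and none higher. The 7 on the list summed to 5.86 to 6.18 scaled CPM in control cells, against 8.83 to 9.77 in fresh fibroblasts. Itgal alone was above this sum in both groups, at 6.63 and 7.05 scaled CPM, against 51.4 and 50.4, and its fall was larger than that of the sum. Of the 2 platelet and megakaryocyte markers tested 1 was higher and 1 lower. The 7 on that list summed to 58.2 to 61.0 scaled CPM in control cells, against 32.5 to 32.8 in fresh fibroblasts. Of 8 epicardial markers 4 were lower and 3 higher, with sums of 169 to 171 scaled CPM, against 247 to 258. All 4 Schwann and neural crest markers tested were lower. Their part in the integrin and laminin differences was not tested, and time in culture, virus and changed cell make-up cannot be told apart in this comparison.

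The plot of all 5 comparisons places these differences beside the smaller ones within the cultured groups.

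**Figure D3:**
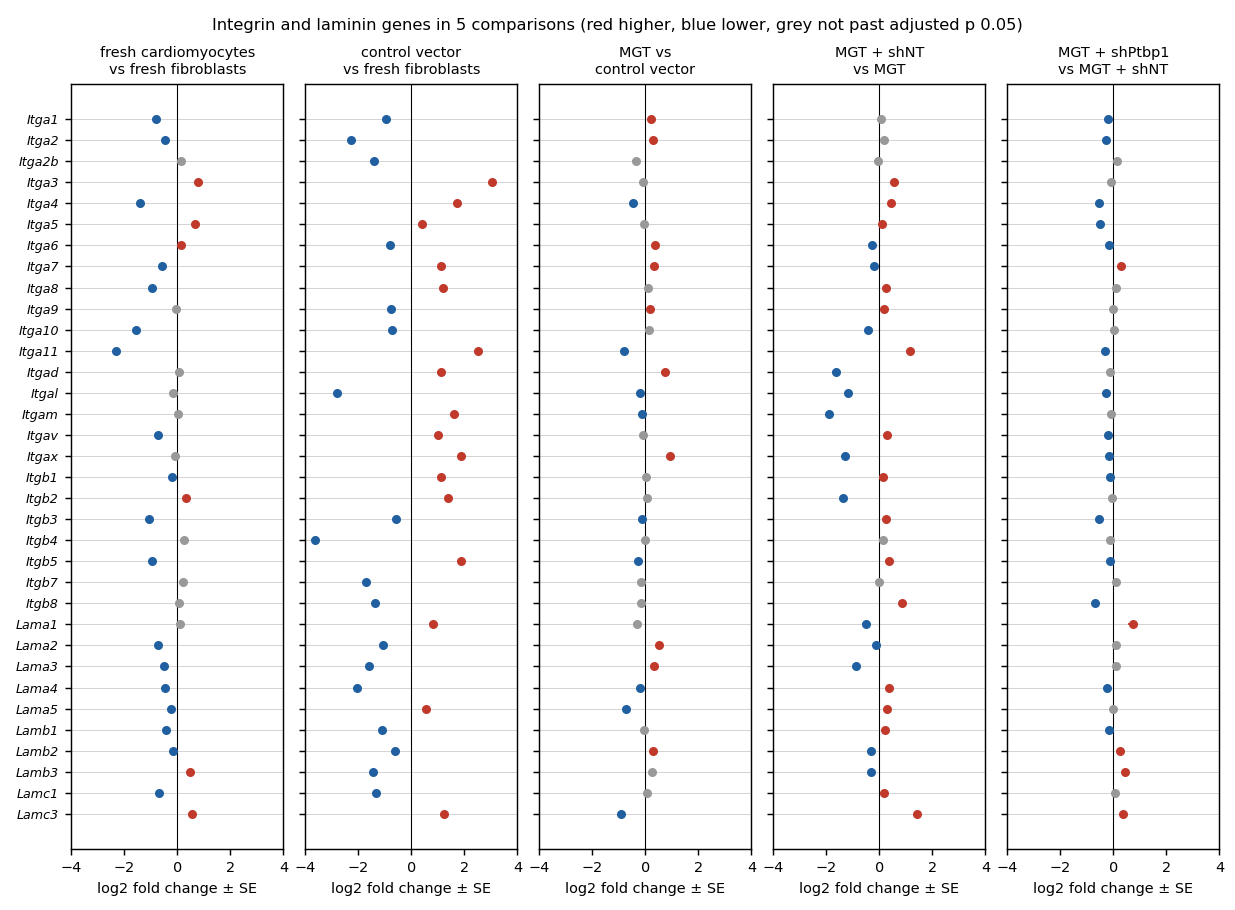
Log2 fold change (horizontal axis, ± SE) of the integrin and laminin genes in the 5 comparisons, first-named group over second-named group; red is higher, blue lower, grey not past an adjusted p of 0.05 by limma. The second panel, control vector against fresh fibroblasts, spans from -3.64 for Itgb4 to 3.04 for Itga3, while no gene passes 1 in either direction in the panels of MGT against control and of the Ptbp1 hairpin.

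The comparison of MGT cells with control cells asked what went with the MGT virus in the families within 3 days. It does not set the 3 factors against their absence, since control cells also held their RNA. Mean Tbx5 was 1809 scaled CPM in MGT cells, against 661 in control cells, Mef2c 741, against 322, and Gata4 692, against 358. On the fitted log2(scaled CPM + 0.5) scale the differences in the families were below 2-fold: Lama2, Itga7 and Itgax rose, while Lama5, Itga11 and Itga4 fell. Of the 35 genes, 10 were higher and 9 lower by limma, where 35.6% of all genes were called, 17.9% higher and 17.7% lower. No called member reached 2-fold on this scale, where 0.880% of all genes did, and Lamc3 lay close to it. The median log2 fold change was -0.05 over the 35 genes and -0.01 over all genes. The control libraries are shared with the comparison above.

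Lama2 rose with MGT: 772 and 780.2 scaled CPM in MGT cells, against 515 and 559.7 in control cells, a log2 fold change of 0.53 ± 0.048 with an adjusted p of 7.93e-08 by limma. Lamb2 was at 337 and 340.4 scaled CPM, against 262 and 291 (log2 fold change 0.29). Lama5 fell to 111 and 113 scaled CPM in MGT cells, against 166 and 205 in control cells (log2 fold change -0.72 ± 0.08, adjusted p = 1.26e-06), and Lama4 to 268 in both MGT libraries, against 305 and 316 (-0.21). Both MGT libraries lay outside the control range for these 4 genes. Lamc3, a minor gamma chain, was at 3.11 and 2.70 scaled CPM, against 5.20 and 6.57 (log2 fold change -0.90, or -1.02 by edgeR on reads and -1.06 by limma without control replicate 1), while Lamb1 and Lamc1, the partners in the major trimers, were not called (-0.07 and 0.07).

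The shift in the alpha chains was larger as a ratio. Lama2 stood per kilobase at 2.13 and 2.15 times Lama4 in MGT cells, against 1.25 and 1.31 times in control cells. In the hairpin groups the ratio was 1.94 and 1.92 in MGT + shPtbp1 cells, against 1.5 and 1.52 in MGT + shNT cells. In the fresh cells it was 0.547 and 0.549 in cardiomyocytes, against 0.650 and 0.662 in fibroblasts. The ratio was thus higher in MGT cells than in control cells and lower in fresh cardiomyocytes than in fresh fibroblasts, with no overlap of the libraries in any of these pairs. No test of the ratio was run.

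The muscle laminin receptor subunit Itga7 rose to 220.3 and 220.4 scaled CPM in MGT cells, against 169.6 and 183 in control cells (log2 fold change 0.32 ± 0.038, adjusted p = 2.85e-06 by limma), and Itga6 to 126 and 135, against 95.5 and 107 (0.37 ± 0.048). Itga1 and Itga9 were higher by 0.23 and 0.17. Itga3, the other laminin receptor subunit, was not called at 135 and 148 scaled CPM, against 147 and 153, and was lower without MGT replicate 2 (adjusted p = 0.0325). Itgb1 was not called either, at 2643 and 2705 scaled CPM, against 2630.2 and 2577 (log2 fold change 0.04). Beside these values, 9 of 10 cardiomyocyte markers were higher and none lower, with sums of 4032 to 4211 scaled CPM in MGT cells, against 2734 to 2909 in control cells. Of 10 fibroblast markers 8 were lower and 1 higher, with sums of 16864 to 17062 scaled CPM, against 20748 to 22909.9, and 7 of 10 endothelial markers were lower. No marker of these lists was at 0, and their part in the integrin and laminin values was not tested.

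Of the 24 integrins, 6 were lower with MGT. Itga11 was at 20.9 and 23.8 scaled CPM in MGT cells, against 38.5 and 39.9 in control cells (log2 fold change -0.80 ± 0.084, adjusted p = 5.36e-07 by limma), Itga4 at 126 and 134, against 175 and 182 (-0.45), and Itgb5 at 569 and 582, against 684 and 710.3 (-0.28). The MGT libraries lay below the control libraries for each. Among other collagen receptor subunits, Itga1 and Itga2 (0.29) were higher and Itga10 was not called. Calls for Itga2, Lama3, Itgal, Itgam and Itgb3 in this comparison did not hold in every fit with 1 library left out. The log2 fold change of Itga2 was then 0.25 without MGT replicate 2. That of Lama3 (0.32 with all libraries) was 0.25 without MGT replicate 1 and 0.21 without control replicate 2. Itgal, Itgam and Itgb3 were close to the threshold with all libraries (adjusted p = 0.0487, 0.0452 and 0.0462 by limma). Their calls were lost whichever of the 4 libraries was left out. The log2 fold changes then lay between -0.26 and -0.14, -0.16 and -0.11, and -0.13 and -0.09, against -0.20, -0.13 and -0.11 with all libraries. Itgav and Itga5, not called, were lower without control replicate 1 (adjusted p = 0.0143 and 0.0105), and Itga8 was higher without MGT replicate 1 (0.0329).

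The largest rise in either family was in a leukocyte subunit. Itgax, the dendritic cell and macrophage partner of Itgb2 (chr7:128129547-128150657, next to Itgam and Itgad), was at 50.5 and 50.7 scaled CPM in MGT cells, against 26.1 in both control libraries (log2 fold change 0.94 ± 0.066, adjusted p = 2.5e-09 by limma). Its neighbour Itgad was at 3.30 and 3.61 scaled CPM, against 1.75 and 1.96 (log2 fold change 0.75 ± 0.15, adjusted p = 0.000524). The shared beta subunit Itgb2 was not called, at 88.5 and 90.6 scaled CPM, against 87.7 and 85.8 (log2 fold change 0.05). Itgax stood per kilobase at 0.359 ± 0.0053 of Itgb2 in MGT cells and at 0.191 ± 0.0027 in control cells (SD, n = 2 each), with no overlap of the libraries. Of 9 myeloid markers, 1 was higher (Cd68) and 4 lower in MGT cells, with sums of 3802 to 3912 scaled CPM, against 3632 to 3867 in control cells and no marker at 0. Their part in the Itgax value was not tested.

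The comparison of MGT + shNT cells with MGT cells sets cells that also took a lentivirus with a non-targeting hairpin against cells that did not. The 5 genes of the Itgb2 family of leukocyte integrins fell, and the other integrins went both ways. Of the 35 genes, 17 were higher and 13 lower by limma, where 44.7% of all genes were called, 24.6% higher and 20.1% lower. At least 2-fold, 2 were higher (Itga11, Lamc3) and 5 lower (Itgam, Itgad, Itgb2, Itgax, Itgal), where 3.51% of all genes differed by that much. The 5 were the full set of leukocyte integrin subunits of the Itgb2 family. The MGT libraries are shared with the comparison above.

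Itgam, the alpha subunit of the macrophage complement receptor, was at 41.1 and 37.8 scaled CPM in MGT + shNT cells, against 150.2 and 145 in MGT cells, a log2 fold change of -1.89 ± 0.05 with an adjusted p of 4.06e-16 by limma. Itgb2 was at 33.9 and 34.5 scaled CPM, against 88.5 and 90.6 (-1.38 ± 0.04), Itgax at 20.7 and 20.0, against 50.5 and 50.7 (-1.29), Itgal at 2.34 and 2.29, against 5.64 and 6.14 (-1.18), and Itgad at 0.832 and 0.699, against 3.30 and 3.61 (-1.64, or -0.98 with a pseudocount of 2). No library of one group reached the range of the other. Per kilobase relative to Itgb2, Itgam fell further, at 0.735 and 0.665 in MGT + shNT libraries, against 1.03 and 0.970 in MGT libraries. The groups did not overlap in this ratio, which was not tested. Itgax stood at 0.378 ± 0.014 of Itgb2 in MGT + shNT cells and 0.359 ± 0.0053 in MGT cells, and Itgal at 0.0314 ± 0.00078 and 0.0305 ± 0.0013 in the same order. All 9 myeloid markers fell as well, with sums of 1361 to 1419 scaled CPM in MGT + shNT cells, against 3802 to 3912 in MGT cells, and none was at 0. Of 10 endothelial markers 7 were higher and 1 lower, with sums of 111 to 117 scaled CPM, against 89.6 to 98.6. The part of these cells in the integrin values was not tested.

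**Figure D4:**
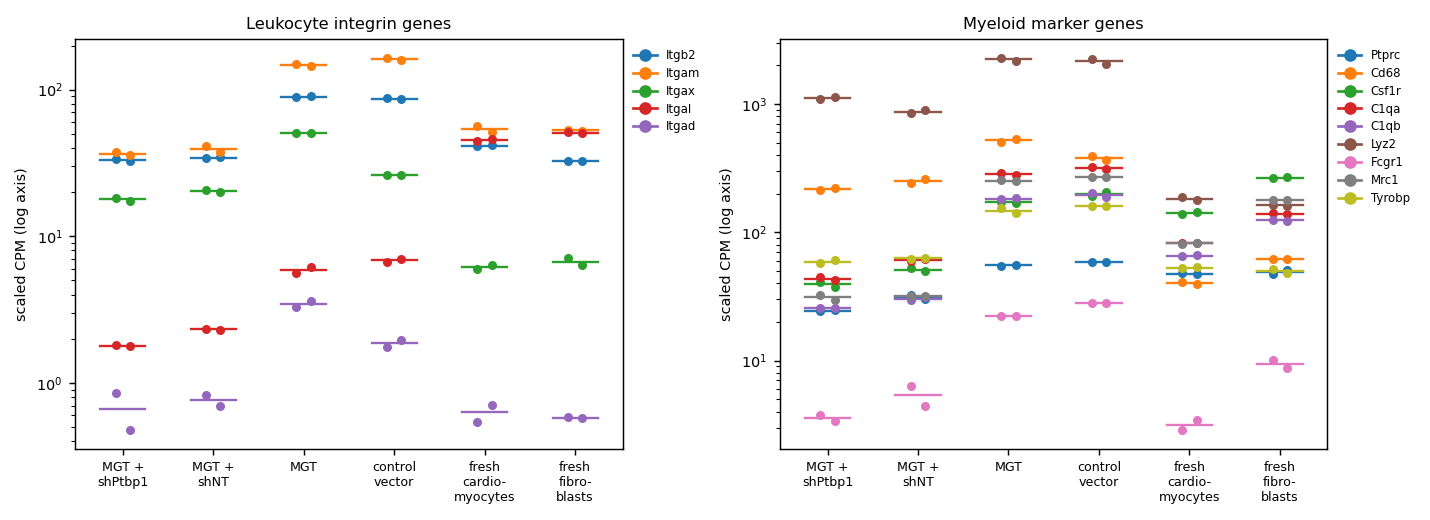
Scaled CPM on log axes of the Itgb2 family of leukocyte integrins (left) and of 9 myeloid marker genes (right) in each library, with bars at the mean of 2. Both sets lie lower in the 4 libraries with a hairpin lentivirus than in the MGT and control libraries, while Itgax was higher in MGT than in control cells and Itgb2 was not called.

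Of all 24 integrins 11 were higher and 8 lower. Itga11 rose to 50.8 and 49.8 scaled CPM in MGT + shNT cells, against 20.9 and 23.8 in MGT cells (log2 fold change 1.16 ± 0.084, adjusted p = 1.33e-09 by limma), and Lamc3 to 8.44 and 8.66, against 3.11 and 2.70 (1.41 ± 0.12). Itgb8, a partner of Itgav that activates latent TGF-beta, was at 8.86 and 8.29 scaled CPM, against 4.34 and 4.68 (log2 fold change 0.86), and Itga3 at 206 and 207, against 135 and 148 (0.54). Each of these was outside the range of the other group. Itga4, Lama4, Itgb5, Itgav and Itga8 were higher by 0.45, 0.37, 0.35, 0.29 and 0.26. Lama3, Lamb2, Itga6 and Itga7 were lower by -0.87, -0.30, -0.26 and -0.20. Itga10 was lower by -0.43, and its call was lost without MGT replicate 1 (adjusted p = 0.0531 by limma). Itga1, Itga2 and Itgb4 were not called. In 8 of the 30 called genes, among them Lama2 (-0.14), Itgb1 (0.16) and Lamc1 (0.16), the call was lost when a single library was left out: Lama2 without MGT + shNT replicate 2 (adjusted p = 0.251), MGT replicate 1 (0.0776) or MGT replicate 2 (0.111), Itgb1 without MGT replicate 1 (0.0516), and Lamc1 without MGT + shNT replicate 1 (0.0952) or MGT replicate 1 (0.129).

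The comparison of MGT + shPtbp1 cells with MGT + shNT cells asked what silencing of Ptbp1, a repressor of many muscle and neural exons, adds to MGT. More integrins fell than rose, though many were not called, and the laminin chains split. Of the 35 genes, 5 were higher and 16 lower by limma, where 34.8% of all genes were called, 16.7% higher and 18.1% lower. Of the 24 integrins 1 was higher and 13 lower, and of the 11 laminins 4 were higher and 3 lower. No called member reached 2-fold on the fitted scale, where 0.651% of all genes did. Lama1, at a mean of 1.26 scaled CPM in MGT + shPtbp1 cells and 0.571 in MGT + shNT cells, passed it by edgeR on reads. The count of lower genes depended on the fit. It was 9 when only these 4 libraries were fitted, which leaves fewer samples to estimate the spread. It was also smaller without MGT + shPtbp1 replicate 2 or without MGT + shNT replicate 1, fits that have fewer samples too. The MGT + shNT libraries are shared with the comparison above.

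The larger falls were in receptors for fibronectin, vitronectin and latent TGF-beta. Itgb8 was at 5.08 and 5.09 scaled CPM in MGT + shPtbp1 cells, against 8.86 and 8.29 in MGT + shNT cells (log2 fold change -0.70 ± 0.081, adjusted p = 1.99e-06 by limma). Itgb3 was at 36.6 and 34.8 scaled CPM, against 52.3 and 52.7 (-0.55 ± 0.042, adjusted p = 1e-08). Itga4 was at 128 and 118 scaled CPM, against 178 in both MGT + shNT libraries (-0.53), and Itga5 at 274 and 264, against 383 and 373 (-0.49 ± 0.043, adjusted p = 5.31e-08). All MGT + shPtbp1 libraries lay below all MGT + shNT libraries in these 4 genes, and each call held with any 1 of the 4 libraries left out. Itga1 was lower by -0.20. Itga8 and Itga3 were not called (0.10 and -0.10), but Itga8 was higher without MGT + shPtbp1 replicate 2 (adjusted p = 0.0151) and Itga3 lower without replicate 1 (0.0367). Falls in Itgb1 (-0.15) and Itgav (-0.18) were smaller: the Itgb1 call was lost without MGT + shPtbp1 replicate 2 (adjusted p = 0.0587), MGT + shNT replicate 1 (0.0707) or replicate 2 (0.0691), and that of Itgav without MGT + shPtbp1 replicate 2 (0.0926). The leukocyte subunits Itgam and Itgb2 were not called, at 37.4 and 35.9 and at 33.9 and 32.8 scaled CPM in MGT + shPtbp1 cells, against 41.1 and 37.8 and 33.9 and 34.5, though Itgam was lower without MGT + shNT replicate 2 (adjusted p = 0.0435). Itgax, at 18.3 and 17.4 scaled CPM, against 20.7 and 20.0, was lower by -0.18 (adjusted p = 0.0396 by limma), a call lost in 5 alternatives, 3 of them with 1 library left out (adjusted p up to 0.205, without MGT + shPtbp1 replicate 2). Itgal, at 1.80 and 1.78 scaled CPM, against 2.34 and 2.29, was lower by -0.30, or by -0.19 with a pseudocount of 2, and its call was lost in the fit over these 4 libraries (adjusted p = 0.0584). Of 9 myeloid markers 6 were lower and 1 higher, with sums of 1533 to 1584 scaled CPM, against 1361 to 1419. The sum was thus higher although most of the markers were lower. Lyz2 gave most of it, at 1091 and 1141 scaled CPM in MGT + shPtbp1 cells, against 845 and 888 in MGT + shNT cells. The part of these markers was not tested.

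Other abundant members differed little or by library. Itga11 was at 45.3 and 36.7 scaled CPM in MGT + shPtbp1 cells, against 50.8 and 49.8 in MGT + shNT cells (-0.30), and its call was lost without MGT + shPtbp1 replicate 2 (adjusted p = 0.224) or MGT + shNT replicate 1 (0.0625). Itga3 was at 199.8 and 187 scaled CPM, against 206 and 207, and Itgb1 at 2734 and 2655, against 2978 and 2982. Lamc1, at 1482 and 1374 against 1401 and 1355, and Lama5, at 152 and 125 against 147 and 131, were not called and their groups overlapped.

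Itga7 was the integrin that rose. It was at 236 scaled CPM in both MGT + shPtbp1 libraries, against 193 and 189.9 in MGT + shNT cells (log2 fold change 0.30 ± 0.038, adjusted p = 6.38e-06 by limma). Per kilobase it stood at 2.66 and 2.76 times Itga6 in MGT + shPtbp1 cells, against 1.92 and 2.00 times in MGT + shNT cells. The laminin beta chains parted: Lamb2 rose to 334 and 315 scaled CPM, against 276 and 273 (log2 fold change 0.24 ± 0.042, adjusted p = 0.000237), whereas Lamb1, at 888 and 826 against 967 and 935 (-0.15), lost its call without MGT + shPtbp1 replicate 2 (adjusted p = 0.138) or MGT + shNT replicate 1 (0.117). Lamb1 stood per kilobase at 1.63 and 1.61 times Lamb2 in MGT + shPtbp1 cells, against 2.15 and 2.1 times in MGT + shNT cells. The libraries of the groups did not overlap in either ratio, and no test of them was run. Beside this, 8 of 10 cardiomyocyte markers were higher and none lower, with sums of 4797 to 5112 scaled CPM in MGT + shPtbp1 cells, against 3981 to 4251 in MGT + shNT cells. Of 10 fibroblast markers 5 were higher and 1 lower, with sums of 17062 to 18616 scaled CPM, against 17122 to 17744. Of 8 smooth muscle and pericyte markers 5 were higher and 2 lower, with sums of 692 to 738 scaled CPM, against 623 to 644. Of 8 epicardial markers 5 were lower and 1 higher, with sums of 161 to 172 scaled CPM, against 174 to 176. No marker of these lists was at 0, and their part was not tested.

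Of the alpha chains Lama4 fell to 302 and 279 scaled CPM in MGT + shPtbp1 cells, against 359 and 332 in MGT + shNT cells (log2 fold change -0.25 ± 0.042, adjusted p = 0.000145 by limma). Lama2 was not called, at 794 and 725 scaled CPM, against 729 and 683 (0.10), but was higher without MGT + shPtbp1 replicate 2 (adjusted p = 0.0163). Lama1, the embryonic alpha chain, was near the limit of the test at 1.17 and 1.35 scaled CPM, against 0.718 and 0.424 (log2 fold change 0.73 ± 0.16, adjusted p = 0.00135), and its fold change was 0.34 with a pseudocount of 2 and 1.14 by edgeR on reads. Lamb3, at 2.16 and 2.33 scaled CPM, against 1.5 and 1.52, was higher by 0.44, and by 0.27 with a pseudocount of 2.

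For several members the difference after Ptbp1 silencing ran against the difference between MGT + shNT and MGT cells, and since these comparisons share the MGT + shNT libraries, only the levels are set side by side. Itgb8 was at 5.08 and 5.09 scaled CPM in MGT + shPtbp1 cells, 8.86 and 8.29 in MGT + shNT cells and 4.34 and 4.68 in MGT cells. Itga4 was at 128 and 118, 178 and 178, and 126 and 134 scaled CPM in the same groups. Lamb2 was at 334 and 315, 276 and 273, and 337 and 340.4 scaled CPM. In these 3 genes the MGT + shNT libraries stood apart from the other 2 groups on the same side in both replicates. Itgam was different, at 37.4 and 35.9, 41.1 and 37.8, and 150.2 and 145 scaled CPM, so that both hairpin groups were low.

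The cytoplasmic adaptors that link integrins to actin were followed as a list of 29, of which 26 were tested. The share called was 92.3% in cardiomyocytes against fibroblasts, 96.2% in control cells against fresh fibroblasts, 50.0% with MGT, 61.5% in MGT + shNT against MGT cells and 34.6% with the Ptbp1 hairpin, where 76.9%, 86.9%, 35.6%, 44.7% and 34.8% of all genes were called in the same order. The last count is therefore no result about the list. In cardiomyocytes against fibroblasts 5 were higher and 19 lower. The muscle adaptor Itgb1bp2, known as melusin, was at 40.4 and 38.0 scaled CPM in cardiomyocytes, against 6.39 and 5.35 in fibroblasts (log2 fold change 2.64), and filamin A (Flna) was lower by -0.87. In control cells against fresh fibroblasts 17 were higher and 8 lower, with Tns3, Tns1 and Vcl, focal adhesion proteins, higher by 1.84, 1.73 and 1.5 and Pxn lower by -1.57. With MGT 7 were higher and 6 lower. In MGT + shNT against MGT cells 11 were higher and 5 lower, and the 2 largest falls were in the leukocyte forms of parvin and kindlin, Parvg (7.95 and 7.93 scaled CPM, against 42.8 and 41.7) and Fermt3 (15.2 and 15.5, against 55.9 and 54.4). With the Ptbp1 hairpin 2 were higher and 7 lower: Flna fell to 2409 and 2164 scaled CPM in MGT + shPtbp1 cells, against 3510.1 and 3389 in MGT + shNT cells (log2 fold change -0.59 ± 0.062), and focal adhesion kinase (Ptk2) to 126 and 127, against 171 and 169 (-0.42).

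Of 20 basement membrane partners of laminin, all tested, 70.0%, 100%, 70.0%, 40.0% and 45.0% were called in the 5 comparisons in the same order. Set against the shares of all genes above, the first was below, the fourth slightly below and the others above. In this list 6 were higher and 8 lower in cardiomyocytes, and 10 were higher and 10 lower in control cells against fresh fibroblasts. With MGT 10 were higher and 4 lower. Nid2, a nidogen that bridges laminin and type IV collagen, was at 5107 and 5368 scaled CPM in MGT cells, against 2398 and 2782 in control cells (log2 fold change 1.02 ± 0.055, adjusted p = 7.76e-11 by limma), and at 425 and 424 in fresh fibroblasts. Dag1, which encodes the laminin receptor dystroglycan, was at 1075 and 1132 scaled CPM in MGT cells, against 739 and 783 (log2 fold change 0.54). In MGT + shNT against MGT cells 4 were higher and 4 lower, and Nid2 was lower by -0.49. With the Ptbp1 hairpin 6 were higher and 3 lower, with Nid2 at 4962 and 4902 scaled CPM in MGT + shPtbp1 cells, against 3709 and 3771 in MGT + shNT cells (log2 fold change 0.40), Ntn1, a netrin, higher by 0.79, Col15a1, a basement membrane collagen, by 0.60, and Bcam, the basal cell adhesion molecule that binds Lama5, by 0.49.

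Other integrin ligands were a list of 26, all tested, with 80.8%, 92.3%, 80.8%, 61.5% and 42.3% called in the same order, the first 2 near the shares of all genes. In cardiomyocytes against fibroblasts 5 were higher and 16 lower, and in control cells against fresh fibroblasts 10 were higher and 14 lower. With MGT 7 were higher and 14 lower, in MGT + shNT against MGT cells 7 were higher and 9 lower, and with the Ptbp1 hairpin 3 were higher and 8 lower. Osteopontin (Spp1) was at 1362 and 1131 scaled CPM in control cells, against 9.51 and 9.34 in fresh fibroblasts (log2 fold change 6.97 ± 0.06). Npnt, the nephronectin bound by the receptor of Itga8, rose with MGT to 84.2 and 82.9 scaled CPM, against 42.2 and 50.5 in control cells (0.85 ± 0.063). With the Ptbp1 hairpin Ctgf, Spp1 and Thbs1, matricellular ligands, fell by 0.62, 0.58 and 0.55 on the log2 scale in MGT + shPtbp1 cells relative to MGT + shNT cells.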

How the data were processed

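Sequencing of polyA RNA with a stranded kit, per the labels' protocols, measured gene expression in 12 libraries, 2 per group. The table deposited by the authors holds CPM (reads scaled to the library total) per gene and library. Per the submitters' processing notes, FastQC, TopHat2 2.1.0, HTSeq 0.6.1p1 and the mm10 genome were used. For the gene models and the strand setting, no source used here gives a statement. Low values were whole multiples of 1 read, so whole reads were recovered for 100% of values within 0.1 reads. Of the 23423 genes, 27 have names that look like numbers. Assigned reads ranged from 49320858 to 94005212 per library, and counting error at this depth falls mainly on genes near 1 CPM.

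CPM were divided by scaling factors of 0.966 to 1.06, and limma 3.58.1 was run on log2 values after adding 0.5 (R 4.3.3, mean-variance trend, 6 residual degrees of freedom, all 6 groups in 1 fit) for the 13977 genes with at least 1 CPM in 2 libraries. P-values were adjusted by the Benjamini-Hochberg method over these genes, with a threshold of 0.05. The smallest exact permutation p for 2 libraries against 2 is 0.33. The results were recomputed without further scaling, with upper-quartile scaling, pseudocounts of 0.1 and 2, no filter, a filter of 5 CPM, a fit over only the libraries compared, a replicate block, each library left out, and edgeR 4.0.16 on the recovered reads.

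On simulated data with 50 genes changed per size, a log2 change of 0.25 was recovered for 60% of genes in cardiomyocytes against fibroblasts, 52% in control cells against fibroblasts, 56% with MGT, 66% with the non-targeting hairpin and 56% with the Ptbp1 hairpin, and all changes of 1 were recovered. Gene lengths and positions came from GENCODE vM21 (GRCm38, the build called mm10), 1-based, and promoters from RefSeq (GRCm38.p6). The members and lists were chosen with earlier results of these data known. Members at 10 scaled CPM or more in a group, or with a called change of at least 0.5, were described with values. Values of 1 tested gene are not reported here, though the counts include it. Of the other lists, up to 3 genes with the largest called changes each way were named. Nid2 after the Ptbp1 hairpin and Dag1 with MGT lie outside that rule and were named after their values were seen. Python 3.11.15, numpy 2.4.6, pandas 2.3.3 and matplotlib 3.10.9 were used.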

Additional observations from a re-analysis of the deposited data

How the results depend on the processing

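No fold change of an integrin or laminin gene changed sign between called values in any of 13 alternatives per comparison. In cardiomyocytes against fibroblasts, 6 of 451 alternative values lost a call and 10 gained one. In control cells against fresh fibroblasts 0 were lost and 2 gained, with MGT 24 were lost and 7 gained, with the non-targeting hairpin 24 were lost and 0 gained, and with the Ptbp1 hairpin 32 were lost and 4 gained. The count of genes lower with the Ptbp1 hairpin, 16, was 9 in a fit over the 4 libraries compared, which has fewer samples to estimate the spread, and ranged from 9 (without MGT + shPtbp1 replicate 2) to 16 when 1 library was left out, with 10 without MGT + shNT replicate 1. Without further scaling, the median log2 fold change of all genes in control cells against fresh fibroblasts was -0.10, against 0.00 with scaling, so changes there are relative to that shift.

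Groups share replicate numbers, but nothing in the labels says that a number pairs libraries, and the correlation of the deviations of same-numbered libraries was -0.0047, -0.012, -0.027, 0.015 and 0.16 in the 5 comparisons in the order of the report. With a replicate block the higher and lower counts were 7 and 18, 16 and 18, 10 and 7, 17 and 13, and 5 and 16. The block ended the calls of Itgal (adjusted p = 0.0547) and Itgb3 (adjusted p = 0.0559) in MGT against control cells by limma, and no other call of a member.

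With 2 libraries per group, genes near 1 CPM depend on the pseudocount, and the simulated recovery shows that log2 changes of about 0.25 are often missed at this size.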
